A study of Mus musculus with 12 samples.

Results

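POVPC, an oxidized phospholipid that accumulates in atherosclerotic lesions, was given to primary mouse aortic smooth muscle cells (MASMC) in which OCT4 had been silenced, and the small RNAs of these cells were compared with those of OCT4-deficient cells given the vehicle. OCT4, encoded by Pou5f1, is a transcription factor of pluripotent cells. The arrays were chosen by their source name, which begins with siOCT4, and they make up 6 of the 12 arrays of the series. The cells were transfected in serum-free medium for 48 h with siRNA against Oct4 (siOCT4) and then received either 10 μg/mL POVPC (siOCT4-POVPC, 3 arrays) or DMSO (siOCT4-DMSO, 3 arrays) for 24 h. The other 6 arrays came from cells with non-target siRNA (siNT-DMSO and siNT-POVPC, 3 arrays each) and are used here only to set the response in siOCT4 cells beside the response in siNT cells. The knockdown was transient and pooled siRNA was used. The sex, age and strain of the donor mice were not given in the sources used here. The free-text description of all 6 siOCT4 samples names non-target siRNA with DMSO, against their titles and source names, and was not followed.

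The arrays carried several probes per small RNA, and no small RNA was named beside a probe. Names were known for 520 miRNA probes of 110 miRNAs, all from lists of changed miRNAs that the study had drawn up. The study had listed 36 of the 110 for the comparison of siOCT4-POVPC with siOCT4-DMSO on these same arrays, 17 for POVPC in siNT cells but not for this comparison, and 57 for knockdown alone, so counts over named miRNAs are not independent evidence of a direction. Where the level of a miRNA is given below, it is the mean log2 signal over its tested probes. None of the named miRNAs defines smooth muscle, so the labelled cell type was not checked. Of the named markers of other cells, mmu-miR-206-5p (skeletal muscle) and mmu-miR-302b-5p (pluripotent cells), no probe was well above background on all 6 siOCT4 arrays. Both were named from the study's list of miRNAs lower after knockdown, drawn from the same siOCT4-DMSO arrays, so their dim signals do not check for other cells. The silenced transcript was not analysed here. In such bulk samples, fewer cells with a miRNA and less of it per cell cannot be told apart.

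siOCT4-DMSO replicate 3 stood apart. Its median processed signal was 24.1, against 5.59 to 8.73 on the other 11 arrays, and it shared slide 2 with the 3 siOCT4-POVPC arrays, while siOCT4-DMSO replicates 1 and 2 lay on slide 1 with all siNT arrays. The slide of each array was inferred here from its scan identifier, as the sample labels name no slide. Among the 8621 miRNA probes tested, it was the siOCT4-DMSO array farthest from the other two for 47.4%. Changes are therefore also given against this array alone, which is the within-slide value, and against siOCT4-DMSO replicates 1 and 2 alone, where the slide cannot be told apart from the treatment.

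miRNAs are short RNAs that guide the Argonaute complex to messenger RNAs, mostly by pairing of the seed, the bases 2 to 8 from the 5′ end, and thereby lower the output of those messenger RNAs. Members of a family share the seed and can bind the same targets, and miRNAs of a genomic cluster are often cut from a common precursor. In smooth muscle, miRNAs take part in the switch between the contractile state and the proliferating or inflammatory states seen in lesions. Several families with known roles in growth and inflammation were among the named miRNAs, and the sequences of those on which the results turn are given first, from RefSeq for GRCm38.p6, with the seed in capitals. Of the 110 named miRNAs, the mature sequences that RefSeq held were all the same as those in the study's table.
mmu-miR-146b-5p: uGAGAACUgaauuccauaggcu
mmu-miR-146a-5p: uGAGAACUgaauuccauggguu
mmu-miR-494-3p: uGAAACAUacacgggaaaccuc
mmu-miR-322-5p: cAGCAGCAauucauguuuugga
mmu-miR-195a-5p: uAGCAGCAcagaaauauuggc
mmu-miR-503-5p: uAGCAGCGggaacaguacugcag
mmu-miR-450a-5p: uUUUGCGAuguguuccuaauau
mmu-let-7g-5p: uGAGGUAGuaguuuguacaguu
mmu-let-7i-5p: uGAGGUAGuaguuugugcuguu
mmu-miR-98-5p: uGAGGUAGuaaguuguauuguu
mmu-miR-26b-5p: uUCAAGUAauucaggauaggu
mmu-miR-10a-3p: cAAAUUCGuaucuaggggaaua
mmu-miR-199a-3p: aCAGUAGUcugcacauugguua
mmu-miR-1224-5p: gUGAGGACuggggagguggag
mmu-miR-6937-5p: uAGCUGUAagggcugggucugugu
Both miR-146 members shared the seed GAGAACU, mmu-let-7g-5p, mmu-let-7i-5p and mmu-miR-98-5p shared GAGGUAG, and mmu-miR-322-5p shared AGCAGCA with mmu-miR-195a-5p.

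Across the whole array, no small RNA passed the test of POVPC in siOCT4 cells. With a threshold of 0.05 on the adjusted p and a required 1.5-fold change, limma called 0 of 8621 miRNA probes (0%), 0 of 2006 other small RNA probes (0%) and 0 in the table of 8211 features in which the probes of each named miRNA were averaged (0%). The lowest adjusted p was 0.093, 0.0951 and 0.254, respectively. At an unadjusted p under 0.05 together with a 1.5-fold change, 442 miRNA probes were found, or 5.13%, of which 3.25% of all were higher after POVPC and 1.88% lower. Among the 5581 miRNA probes well above background on all 6 siOCT4 arrays the shares were 4.34% higher and 0.914% lower. The median change over all miRNA probes was −0.03 on the log2 scale, and the changes of 80% of them lay between −0.36 and 0.39. What is given for named miRNAs are therefore measured differences between 3 and 3 arrays, and none of them is a called change. The unadjusted threshold and the overlap of the groups are used to describe the named miRNAs. In the table of averaged miRNAs, 2.28% of the features were past that threshold in the higher direction and 1.41% in the lower, and 10.3% and 10.7% had groups that did not overlap.

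**Figure D1:**
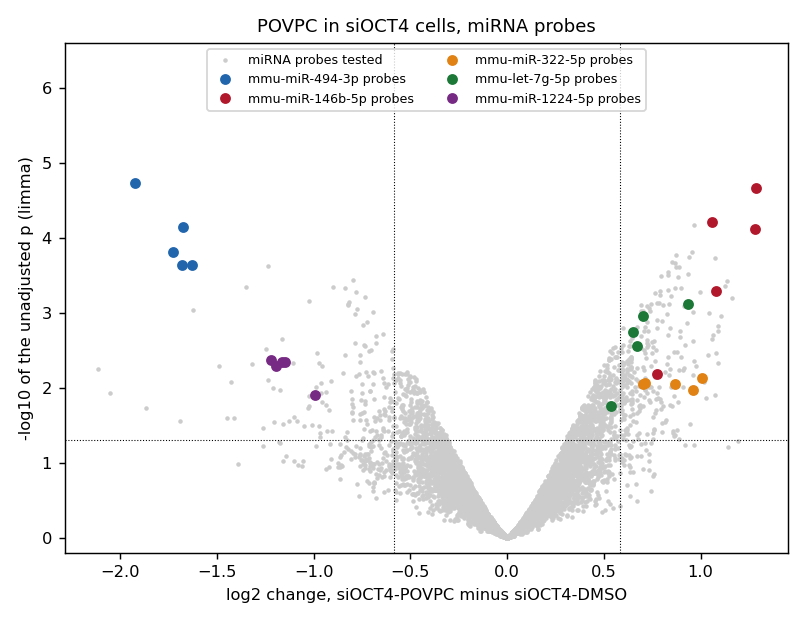
Each grey point is 1 of 8621 miRNA probes, with its log2 change between siOCT4-POVPC and siOCT4-DMSO on the x axis and −log10 of the unadjusted limma p on the y axis. The 5 probes of each of 5 miRNAs are coloured, and dotted lines mark a 1.5-fold change and an unadjusted p of 0.05. The probes of mmu-miR-494-3p lie farthest toward lower values among the coloured ones and those of mmu-miR-146b-5p farthest toward higher values, and no probe passed the adjusted threshold.

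The miRNA with the lowest p among named means was mmu-miR-146b-5p, which is induced by inflammatory signalling and damps it by targeting adaptor proteins of the Toll-like receptor pathway. Its level was 4.23, 4.15 and 4.32 in siOCT4-DMSO and 5.19, 5.43 and 5.36 in siOCT4-POVPC. All 3 treated arrays lay above all 3 vehicle arrays. The mean went from 4.23 ± 0.09 (SD, n = 3) to 5.33 ± 0.12, a log2 difference of 1.09 (SE 0.14) or 2.13-fold, with an adjusted p of 0.254 in limma. The difference was 1.00 against siOCT4-DMSO replicate 3 on the same slide and 1.14 against the other 2 vehicle arrays. With slide as a block, a fit that rests on siOCT4-DMSO replicate 3 as its vehicle array, the adjusted p was 0.0167, and over 21 alternatives it ranged from 0.0153 to 0.634. All 5 probes were higher, by 0.77 to 1.28. In siNT cells the mean of mmu-miR-146b-5p was 5.63 ± 0.73 (SD, n = 3) under DMSO and 5.50 ± 0.45 under POVPC, and the vehicle-treated siOCT4 arrays lay below all 6 siNT arrays. The difference of the POVPC effects, siOCT4 minus siNT, was 1.23 (SE 0.43, unadjusted p 0.0151, adjusted p 0.99 in limma). The study had listed mmu-miR-146b-5p as higher in this comparison and lower after knockdown, and both use the same siOCT4-DMSO arrays. Those lists favour low vehicle levels and a difference of this sign, so both are a description only.

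Its relative mmu-miR-146a-5p, which has the same seed and differs near the 3′ end, was measured on the same arrays. Its level was 5.99, 6.35 and 6.71 in siOCT4-DMSO and 6.16, 6.37 and 6.33 in siOCT4-POVPC, and the groups overlapped. The log2 difference was −0.06 (SE 0.20, adjusted p 0.901 in limma), and its sign turned under both 75th percentile scalings.

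The opposite extreme was mmu-miR-494-3p, which is encoded in the imprinted Dlk1-Dio3 domain at chr12:109715367-109715388 (GRCm38.p6, plus strand) and has been linked to growth control. Its level was 8.01, 7.34 and 7.02 in siOCT4-DMSO and 5.79, 5.84 and 5.56 in siOCT4-POVPC. The groups were separated by more than the whole spread of the vehicle arrays. The mean went from 7.46 ± 0.51 (SD, n = 3) to 5.73 ± 0.15, a log2 difference of −1.73 (SE 0.25), or 3.31-fold lower (adjusted p 0.254 in limma). The difference was −1.29 against siOCT4-DMSO replicate 3 alone and −1.95 against the other 2. All 5 probes were lower, by 1.63 to 1.92. With slide as a block the adjusted p was 0.0346, and over the alternatives it ranged from 0.0346 to 0.634. In siNT cells mmu-miR-494-3p stood at 6.25 ± 0.50 (SD, n = 3) under DMSO and 5.94 ± 0.20 under POVPC. The difference of the POVPC effects was −1.41 (SE 0.38, unadjusted p 0.00297, adjusted p 0.99 in limma). The study had listed mmu-miR-494-3p as higher after knockdown and lower in this comparison, and both use the same vehicle arrays. Those lists favour a difference of this sign, so it is a description only.

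**Figure D2:**
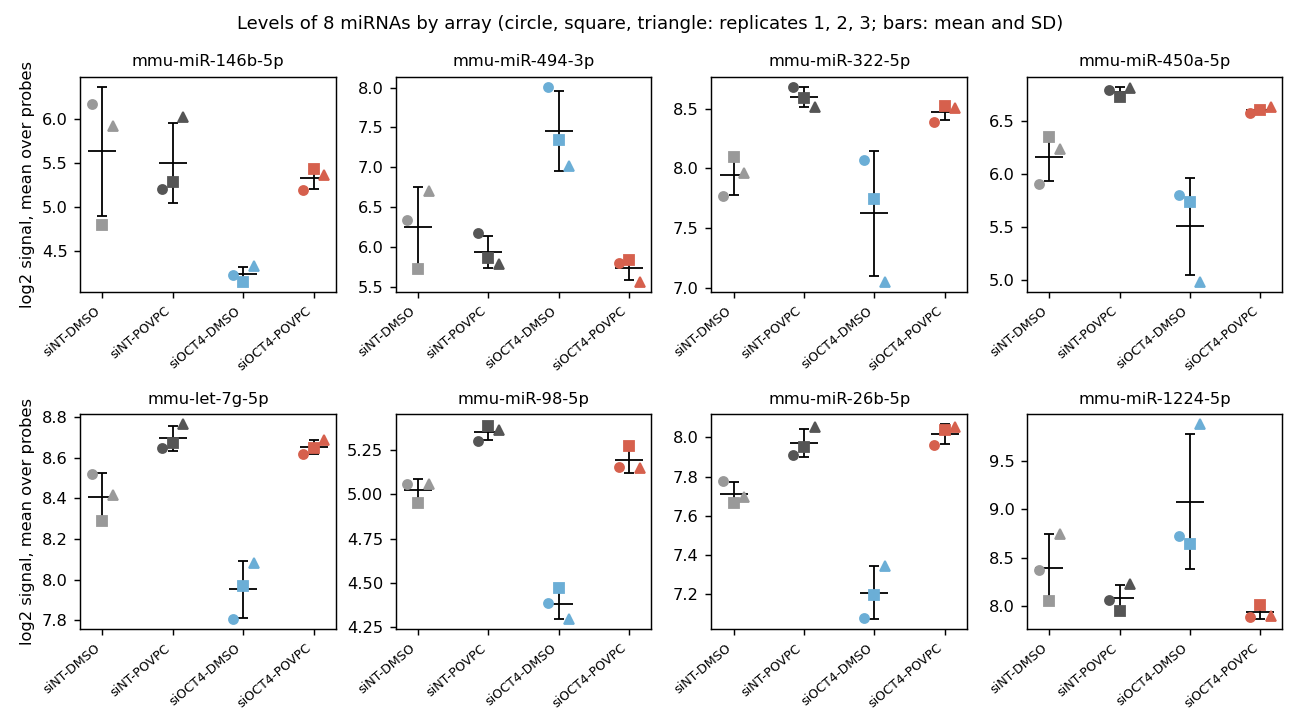
Each panel shows 1 miRNA, with the mean log2 signal over its probes on the y axis and the 4 groups on the x axis. Circles, squares and triangles are replicates 1, 2 and 3, and bars give the mean and SD of 3 arrays. For mmu-miR-146b-5p, mmu-let-7g-5p, mmu-miR-98-5p and mmu-miR-26b-5p the siOCT4-DMSO arrays lie lowest, for mmu-miR-494-3p they lie highest, and for mmu-miR-322-5p and mmu-miR-450a-5p siOCT4-DMSO replicate 3 lies below replicates 1 and 2.

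In the miR-322 cluster, all 6 named members were higher after POVPC. The cluster lies on the X chromosome at chrX:53048008-53054327 (GRCm38.p6, minus strand), where the 6 named members span 6320 bases, with mmu-miR-322-5p, mmu-miR-322-3p and mmu-miR-503-5p within the span of the long non-coding RNA gene C430049B03Rik. The cluster is active in muscle, and its miR-15/16-like members repress cell cycle genes. All 6 members were higher in siOCT4-POVPC with no overlap of the groups, and 3 of the 6 were past the unadjusted threshold. Of the 110 named miRNAs, 49 were higher with no overlap and 22 were past that threshold in the higher direction. The median change of the 6 was 0.75, against −0.04 over all features of the table. The study had listed 4 of the 6 for this comparison, while mmu-miR-322-3p and mmu-miR-542-3p came from its list for siNT cells. Every named member was thus on a list of miRNAs higher after POVPC, and other miRNAs of the cluster could not be named.

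mmu-miR-450a-5p was 5.80, 5.73 and 4.98 in siOCT4-DMSO and 6.57, 6.61 and 6.63 in siOCT4-POVPC, a 2.14-fold difference (SE 0.22 on the log2 scale, adjusted p 0.352 in limma). mmu-miR-322-5p was 8.07, 7.75 and 7.05 against 8.39, 8.52 and 8.50, a difference of 0.85 (SE 0.25, adjusted p 0.352 in limma). mmu-miR-503-5p was 5.70, 4.95 and 5.00 against 6.09, 6.12 and 6.06, a difference of 0.87 (SE 0.21, adjusted p 0.352 in limma). In each of them the treated arrays lay within 0.13 of each other or closer, while the vehicle arrays spread over 0.75 or more. The other 3 members, mmu-miR-322-3p, mmu-miR-542-3p and mmu-miR-450b-3p, differed by 0.65, 0.52 and 0.49. siOCT4-DMSO replicate 3 was the lowest vehicle array for 5 of the 6. Against replicate 3 alone the median change of the cluster was 1.22, and without it 0.51, which is over 1.5 times apart.

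In siNT cells all 6 named members were on the higher side after POVPC as well, with a median of 0.58. The study had listed mmu-miR-322-5p, mmu-miR-322-3p, mmu-miR-450a-5p and mmu-miR-542-3p as higher on these siNT arrays, so their direction there supports nothing. mmu-miR-503-5p and mmu-miR-450b-3p, which were not on that list, differed by 0.66 and 0.39. The siNT groups overlapped for mmu-miR-503-5p, at 4.91, 4.88 and 5.33 under DMSO and 6.15, 5.99 and 4.97 under POVPC. They did not overlap for mmu-miR-450b-3p. For mmu-miR-322-5p the mean in siNT cells went from 7.94 ± 0.16 (SD, n = 3) to 8.60 ± 0.08, and the difference of the POVPC effects was 0.20 (SE 0.30, unadjusted p 0.525, adjusted p 0.99 in limma). The difference of the effects of mmu-miR-450a-5p was 0.48 (SE 0.28, unadjusted p 0.113, adjusted p 0.99 in limma), and none of the 6 had an unadjusted p under 0.05 for it. The other named miRNAs with the seed AGCAGCA were mmu-miR-195a-5p, which was 0.58 higher in siOCT4-POVPC (SE 0.14), and mmu-miR-1907, 0.43 higher (SE 0.18), or 0.26 without siOCT4-DMSO replicate 3. In siNT cells these 2 differed by −0.03 each after POVPC, where mmu-miR-322-5p differed by 0.65.

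The probes of mmu-miR-322-5p show what each signal measures. Each probe pairs with the 3′ part of the miRNA behind a leading guanine, and the 5 probes differ in how far they reach toward its 5′ end. Bases beyond the shortest probe are in capitals.
probe pairing with 17 bases: gtccaaaacatgaattgc
probe pairing with 18 bases: gtccaaaacatgaattgcT
probe pairing with 19 bases: gtccaaaacatgaattgcTG
probe pairing with 20 bases: gtccaaaacatgaattgcTGC
probe pairing with 21 bases: gtccaaaacatgaattgcTGCT
In siOCT4-DMSO the mean log2 signal of these mmu-miR-322-5p probes was 4.74, 4.85, 8.36, 10.12 and 10.04 in this order. The change after POVPC was 0.96, 1.01, 0.87, 0.70 and 0.71, so probes with very unlike signals gave changes of similar size. The 21-base probe reaches base 2 of the miRNA and so covers the whole seed, and the shorter ones cover part of it. For mmu-miR-494-3p the stretches were shorter, from 13 to 17 bases, and for mmu-miR-1224-5p from 11 to 15.
shortest probe of mmu-miR-494-3p: ggaggtttcccgtg
longest probe of mmu-miR-494-3p: ggaggtttcccgtgTATG
shortest probe of mmu-miR-1224-5p: gctccacctccc
longest probe of mmu-miR-1224-5p: gctccacctcccCAGT
Of the 98 named miRNAs with 5 tested probes, 69 had all 5 probes on the same side of 0. The median range among the 5 probes was 0.91 for the signal in siOCT4-DMSO and 0.46 for the change.

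**Figure D3:**
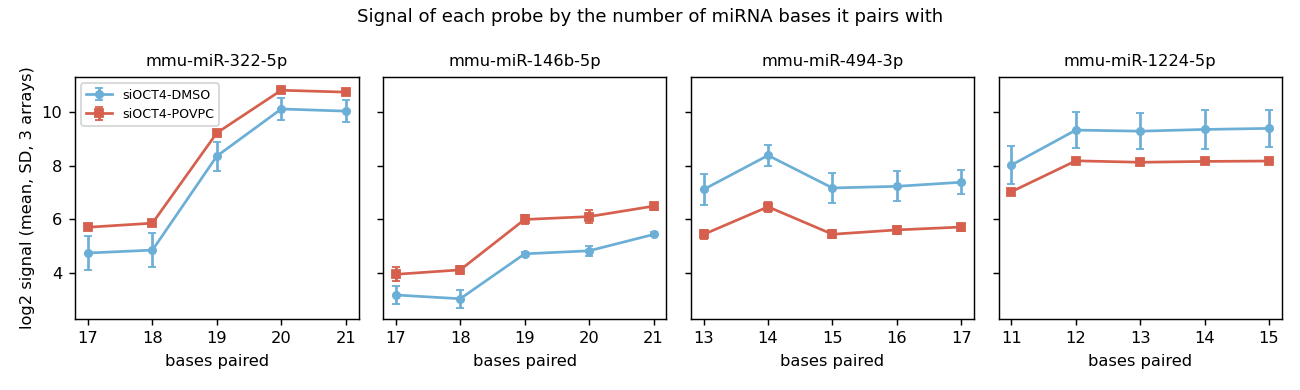
For 4 miRNAs, the log2 signal of each probe (mean and SD of 3 arrays) is plotted against the number of miRNA bases with which the probe pairs, for siOCT4-DMSO (circles) and siOCT4-POVPC (squares). The lines run nearly parallel, with siOCT4-POVPC above for mmu-miR-322-5p and mmu-miR-146b-5p and below for mmu-miR-494-3p and mmu-miR-1224-5p.

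The let-7 family restrains growth and pluripotency genes such as Lin28, Myc and Hmga2, and only the members on the study's lists could be named. All 5 named let-7 miRNAs were higher in siOCT4-POVPC with no overlap, and all 5 were past the unadjusted threshold, with a median change of 0.70. Of the 110 named miRNAs, 49 were higher with no overlap and 22 were past that threshold in the higher direction. mmu-let-7g-5p was 7.80, 7.97 and 8.08 in siOCT4-DMSO and 8.62, 8.65 and 8.69 in siOCT4-POVPC, a log2 difference of 0.70 (SE 0.14, adjusted p 0.352 in limma). mmu-let-7i-5p was 7.56, 7.73 and 7.57 against 8.15, 8.26 and 8.25, a difference of 0.60 (SE 0.14). mmu-miR-98-5p, which lies within the Huwe1 gene on the X chromosome, was 4.38, 4.47 and 4.30 against 5.15, 5.27 and 5.14, a difference of 0.80 (SE 0.14, adjusted p 0.278 in limma). In these 3 siOCT4-DMSO replicate 3 did not stand apart. The study had listed 4 of the 5 for this comparison. The median over the list was 0.77 against replicate 3 alone and 0.66 without it. The other members, mmu-let-7j and mmu-let-7d-3p, differed by 0.59 and 0.96. mmu-let-7d-3p was 1.56 higher than replicate 3 and 0.66 higher than the other 2 vehicle arrays. It rests on 1 probe and comes from the other arm of its hairpin, which does not carry the let-7 seed. The seed of mmu-let-7j, GAGGUAU, differs from GAGGUAG in its last base.

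In siNT cells POVPC went with smaller differences of the let-7 miRNAs, with a median of 0.16 and all 5 on the higher side. The levels in siNT-DMSO were already higher, at 8.41 ± 0.12 (SD, n = 3) for mmu-let-7g-5p and 5.02 ± 0.06 for mmu-miR-98-5p. The difference of the POVPC effects had an unadjusted p under 0.05 for all 5, and for none an adjusted p under 0.99 in limma. The unadjusted p was under 0.05 for 26 of the 110 named miRNAs and for 4.3% of all features. The difference was 0.41 (SE 0.17) for mmu-let-7g-5p, 0.43 (SE 0.17) for mmu-let-7i-5p and 0.48 (SE 0.16) for mmu-miR-98-5p. mmu-let-7i-5p was named from the study's list of miRNAs lower after knockdown, which uses the same siOCT4-DMSO arrays. All 5 were thus chosen on vehicle arrays that enter this difference, so the count supports nothing. The 5 miRNAs were measured on the same arrays, and probes of the family are alike in sequence, so they are not 5 separate observations. All siNT arrays lay on slide 1, so a slide effect is part of this difference and cannot be told apart from it, except within slide 2 as given above.

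A mixed list of 11 miRNAs found in many tissues, 8 of which the study had listed for this comparison, was higher too. All 11 were higher in siOCT4-POVPC with no overlap of the groups, 4 were past the unadjusted threshold, and the median change was 0.55. Of the 110 named miRNAs, 49 were higher with no overlap and 22 were past that threshold in the higher direction. mmu-miR-26b-5p, hosted by Ctdsp1 and known to restrain growth, was 7.08, 7.20 and 7.34 in siOCT4-DMSO and 7.96, 8.04 and 8.05 in siOCT4-POVPC, a log2 difference of 0.81 (SE 0.14, adjusted p 0.278 in limma). mmu-miR-199a-3p, a miRNA of mesenchymal cells, was 8.38, 8.17 and 7.67 against 8.84, 8.91 and 8.89, a difference of 0.80 (SE 0.20). It was 1.21 higher than siOCT4-DMSO replicate 3 and 0.60 higher than the other 2 vehicle arrays. mmu-miR-101a-3p, which targets the methyltransferase gene Ezh2, differed by 0.60 (SE 0.13). At the low end mmu-miR-210-3p, the miRNA induced by hypoxia, differed by 0.17 (SE 0.14). All 11 were on the higher side in siNT cells as well, with a median of 0.25. For mmu-miR-26b-5p the difference of the POVPC effects was 0.55 (SE 0.17, unadjusted p 0.0064, adjusted p 0.99 in limma). This miRNA was among the 8 listed, which were chosen on the same siOCT4 arrays, so the value is a description only.

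Both arms of miR-10a, which lies within the span of Hoxb3 in the HoxB cluster on chromosome 11, were higher. The study had listed both for this comparison, and mmu-miR-10a-3p also as lower after knockdown, which uses the same vehicle arrays. mmu-miR-10a-3p was 4.56, 4.47 and 4.26 in siOCT4-DMSO and 5.23, 5.31 and 5.25 in siOCT4-POVPC, a log2 difference of 0.83 (SE 0.14, adjusted p 0.278 in limma). mmu-miR-10a-5p, a miRNA that restrains inflammatory signalling in endothelium, was 6.70, 6.53 and 6.13 against 7.05, 7.08 and 7.08, a difference of 0.61 (SE 0.17). Its shortest probe differed by −0.01 and the other 4 by 0.53 to 0.96. Against siOCT4-DMSO replicate 3 alone, mmu-miR-10a-5p differed by 0.93 and mmu-miR-10a-3p by 1.005. Without that array they differed by 0.45 and 0.75. In siNT cells the differences after POVPC were 0.22 for mmu-miR-10a-5p and 0.41 for mmu-miR-10a-3p. No probe of the other named Hox cluster miRNAs, mmu-miR-196a-1-3p and mmu-miR-196a-2-3p, was well above background on all 6 siOCT4 arrays, and their differences of −0.74 (SE 0.33) and 0.09 (SE 0.22) rest on dim signals. mmu-miR-196a-1-3p was 3.73, 2.66 and 2.31 in siOCT4-DMSO and 2.29, 2.04 and 2.13 in siOCT4-POVPC, where its mean in siNT-DMSO was 8.84 ± 0.35 (SD, n = 3).

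The Dlk1-Dio3 domain on chromosome 12 was mixed. Of its 9 named miRNAs, spread over 149185 bases, 7 were higher and 2 lower in siOCT4-POVPC, with a median change of 0.23, and the groups did not overlap in 4 and 2 of them. The groups did not overlap in 49 and 22 of the 110 named miRNAs, and in 10.3% and 10.7% of all features. Past the unadjusted threshold in the higher direction were 22 of the 110 and 2.28% of all features. The study had listed 4 of the 9 for this comparison, among them mmu-miR-494-3p. Higher were mmu-miR-299a-5p by 0.81 (SE 0.17), mmu-miR-376a-3p by 0.71 (SE 0.22) and mmu-miR-434-3p by 0.59 (SE 0.19), all past the unadjusted threshold and all among the miRNAs the study listed for this comparison. In siNT cells these 3 differed by 0.94, 0.79 and 0.70. Without siOCT4-DMSO replicate 3 the siOCT4 value of mmu-miR-376a-3p was 0.48. Of the 5 probes of mmu-miR-299a-5p, 2 were well above background on all 6 siOCT4 arrays. Lower were mmu-miR-494-3p and mmu-miR-299a-3p, of which the second had no probe well above background on all 6 siOCT4 arrays. The remaining members, mmu-miR-379-3p, mmu-miR-410-5p, mmu-miR-485-3p and mmu-miR-495-3p, differed by 0.12 to 0.23, and no probe of mmu-miR-379-3p and mmu-miR-495-3p was well above background on all 6.

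Of the smaller groups, mmu-miR-183-5p was 0.65 higher (SE 0.18) and its cluster neighbour mmu-miR-96-5p 0.14 higher (SE 0.15). The 3 named X-linked miRNAs near Fmr1 were on the higher side, with mmu-miR-871-5p at 0.41 (SE 0.14), mmu-miR-883b-5p at 0.45 (SE 0.18) and mmu-miR-881-5p at 0.13 (SE 0.18). Without siOCT4-DMSO replicate 3 the last 2 differed by 0.27 and −0.03. Among 20 miRNAs of the repeated miR-466, miR-467 and miR-669 families, 16 were higher and 4 lower, with a median of 0.20 and 1 past the unadjusted threshold. Probes for these near-identical sequences cannot be assumed to tell members apart.

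Fewer of the listed miRNAs were lower after POVPC than higher. Besides mmu-miR-494-3p they included mmu-miR-1224-5p, a miRNA cut from a spliced intron of Vwa5b2, mmu-miR-7047-5p, and mmu-miR-6937-5p, which lies within the span of Adi1. mmu-miR-1224-5p was 8.72, 8.64 and 9.88 in siOCT4-DMSO and 7.89, 8.02 and 7.90 in siOCT4-POVPC. The vehicle arrays lay above the treated ones, and siOCT4-DMSO replicate 3 lay over 1 log2 unit above the other 2. The log2 difference was −1.14 (SE 0.31, adjusted p 0.352 in limma), and it was −0.75 without replicate 3 and −1.94 against replicate 3 alone. mmu-miR-7047-5p was 7.62, 7.76 and 7.93 against 7.02, 7.01 and 6.93, a difference of −0.78 (SE 0.14, adjusted p 0.347 in limma). mmu-miR-6937-5p was 8.05, 8.24 and 8.33 against 7.42, 7.59 and 7.46, a difference of −0.72 (SE 0.15). Both were lower whichever vehicle arrays were used, by 0.94 and 0.84 against replicate 3 and by 0.70 and 0.65 against the others. mmu-miR-6360 was lower by 0.58 (SE 0.15) in siOCT4 cells and 0.25 higher in siNT cells, and the difference of the POVPC effects was −0.82 (SE 0.18, unadjusted p 0.000721, adjusted p 0.99 in limma). The study had listed mmu-miR-6360 and mmu-miR-7047-5p as lower in this comparison and higher after knockdown, on the same siOCT4-DMSO arrays. Those lists favour a difference of this sign, so it is a description only.

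All 29 miRNAs that the study had listed as higher in this comparison were on the higher side here, with a median change of 0.66, and 21 were past the unadjusted threshold in limma. All 7 listed as lower were on the lower side, with a median of −0.72, and 5 were past it. They had been chosen on these arrays, so the counts describe them and support nothing. Against siOCT4-DMSO replicate 3 alone the medians were 0.89 and −0.84, and without it 0.56 and −0.70, with all 36 on the same side each time. siOCT4-DMSO replicate 3 was the lowest vehicle array for 22 of the 29 listed as higher.

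**Figure D4:**
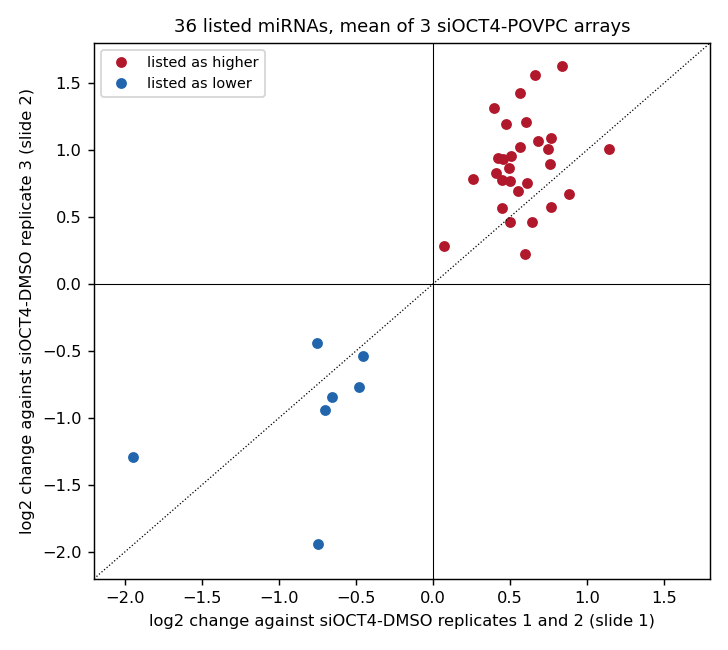
Each point is 1 of the 36 listed miRNAs. The x axis gives its log2 change against siOCT4-DMSO replicates 1 and 2 on slide 1 and the y axis that against siOCT4-DMSO replicate 3 on slide 2, in both cases from the mean of the 3 siOCT4-POVPC arrays. All points lie in the quadrant of their list, and most of those listed as higher lie above the dotted line of equal change.

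The study had also listed miRNAs for POVPC in siNT cells. Of the 10 listed as higher there, 9 were on the higher side in siOCT4 cells, with a median of 0.38. The 3 past the unadjusted threshold, mmu-miR-322-5p, mmu-miR-376a-3p and mmu-miR-450a-5p, were also on the study's list for siOCT4 cells, and of the other 7 none was past it in the higher direction. The 11 listed as lower in siNT cells were on the lower side in siOCT4 cells, with a median of −0.78 against −1.17 in siNT cells. For 7 of the 11 no probe was well above background on all 6 siOCT4 arrays, so these values are given as a description only. mmu-miR-1258-3p was also on the study's list for siOCT4 cells. These 11 moved together among the vehicle arrays. siOCT4-DMSO replicate 2 was the highest vehicle array for all 11, and the median level of the list was 3.19, 4.13 and 2.88 on the 3 siOCT4-DMSO arrays and 2.81, 2.46 and 2.66 on the siOCT4-POVPC arrays. Without replicate 2 the median change was −0.47, which is over 1.5 times smaller, with all 11 still on the lower side. Against replicate 3 alone it was −0.37, with 10 of the 11 on the lower side. mmu-miR-547-5p, for example, was 2.99, 4.34 and 3.02 in siOCT4-DMSO and 2.25, 2.46 and 2.33 in siOCT4-POVPC. mmu-miR-7679-3p was 3.66, 4.69 and 3.64 against 3.15, 3.20 and 3.20. Both were named after their values were seen, and no probe of mmu-miR-547-5p was well above background on all 6 siOCT4 arrays. None of the 11 had an unadjusted p under 0.05 for the difference of the POVPC effects.

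The study's lists for the 2 cell states shared mmu-miR-322-5p, mmu-miR-376a-3p and mmu-miR-450a-5p among the higher miRNAs, which are 10.3% of the siOCT4 list and 30.0% of the siNT list. They shared mmu-miR-1258-3p among the lower ones, 14.3% of the siOCT4 list and 9.09% of the siNT list. Across all 8621 miRNA probes the changes in siOCT4 and siNT cells correlated with a Pearson r of 0.39, and 65.2% had the same sign. The 2 comparisons use different arrays, but all were normalized together, and probes of 1 miRNA and probes of like brightness are not independent points. Without siOCT4-DMSO replicate 3 the r was 0.31, and against that array alone it was 0.36. In the test of the difference of the POVPC effects itself, limma called 0 of 8621 miRNA probes (0%; lowest adjusted p 0.88) and 0 of 2006 other small RNA probes (0%; lowest adjusted p 0.406). Without adjustment, 438 miRNA probes (5.08%) and 119 other probes (5.93%) had a p under 0.05.

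**Figure D5:**
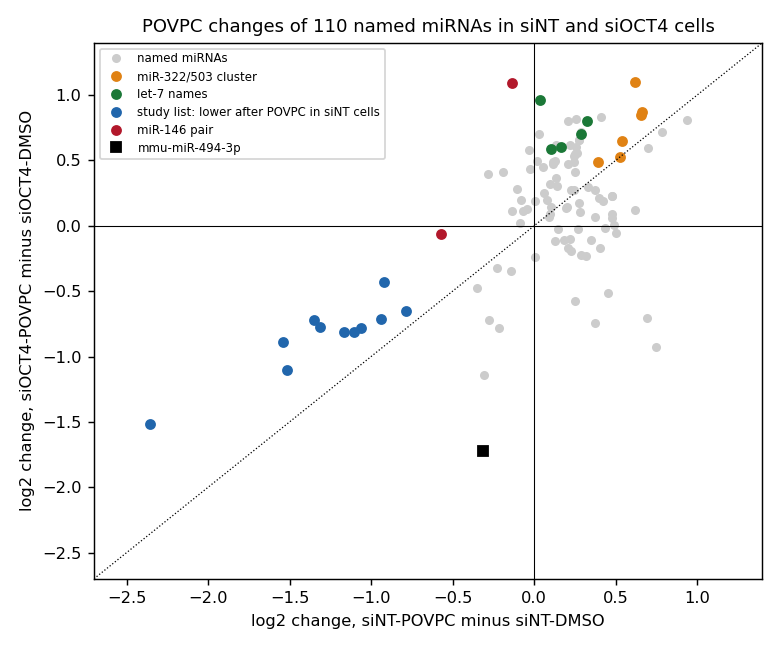
Each point is 1 of 110 named miRNAs, with the log2 change after POVPC in siNT cells on the x axis and in siOCT4 cells on the y axis, and the dotted line marks equal change. The 6 members of the miR-322 cluster lie on the higher side in both, the let-7 miRNAs lie above the line, the 11 miRNAs listed as lower in siNT cells are lower in both, and mmu-miR-494-3p and mmu-miR-146b-5p lie far from the line.

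Other small RNAs were measured by 334 PST and 1672 TRF probes, codes that the sources used here do not spell out. At the unadjusted threshold 6.89% of the PST probes were higher after POVPC in siOCT4 cells and 5.39% lower, and 1.56% of the TRF probes were higher and 1.2% lower. Over both classes these were 49 higher and 38 lower, but 423 and 17 with 75th percentile scaling over all probes and 266 and 30 with that scaling over probes above background on all arrays. PST probes were the more shifted class, with a median change of 0.19, but the median was 0.59 against siOCT4-DMSO replicate 3 and −0.05 without it. The TRF median was −0.02. The TRF probe ASMM10SMR20TRF100003142TV1 was 8.78, 8.97 and 8.81 in siOCT4-DMSO and 7.92, 7.75 and 7.81 in siOCT4-POVPC, a log2 difference of −1.03 (SE 0.09) or 2.04-fold lower (adjusted p 0.0951 in limma). The groups were far apart relative to their spread, and the difference was −0.98 on the same slide and −1.05 without it. In siNT cells this probe differed by −0.06, and the difference of the POVPC effects was −0.97 (SE 0.21, unadjusted p 0.000951, adjusted p 0.56 in limma).

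The PST probe ASMM10SMR20PST100044867TV1 was 5.97, 5.70 and 5.33 in siOCT4-DMSO and 4.33, 4.35 and 4.27 in siOCT4-POVPC, a log2 difference of −1.35 (SE 0.17, adjusted p 0.206 in limma). It was 0.38 higher after POVPC in siNT cells, and the difference of the POVPC effects was −1.72 (SE 0.30, unadjusted p 0.000203, adjusted p 0.406 in limma). Among the PST probes on the higher side, ASMM10SMR20PST100015099TV1 differed by 0.80 (SE 0.12) and ASMM10SMR20PST100029821TV1 by 0.57 (SE 0.08), the latter with 0.54 in siNT cells. ASMM10SMR20PST100038359TV1 was lower by 0.62 (SE 0.11) and ASMM10SMR20TRF100004642TV1 by 0.72 (SE 0.11). The TRF probes ASMM10SMR20TRF100000583TV1 and ASMM10SMR20TRF100000579TV1 were higher by 0.46 (SE 0.09) and 0.64 (SE 0.12). These 8 PST and TRF probes were chosen for the lowest p in this comparison, so their values are a description only. Their groups did not overlap, which the choice favours, and the same held for 26.7% of the other small RNA probes. The unnamed miRNA probe ASMM10SMR20MIRNA100000554TV1 was 4.90, 4.86 and 4.84 in siOCT4-DMSO and 5.79, 5.81 and 5.90 in siOCT4-POVPC, a difference of 0.97 (SE 0.13, adjusted p 0.109 in limma), and its small RNA was not named in the sources used here.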

How the data were processed

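Total RNA of MASMC was dephosphorylated and its 3′ ends were ligated to Cy3, and 1-colour arrays were hybridized and scanned. The files deposited by the authors hold the intensity of each spot from Agilent Feature Extraction 11.0.1.1 (processed signal with local background removed, median and background signals), not normalized between arrays. The series table deposited by the authors holds log2 values after their quantile normalization and served as an alternative. Control spots and outlier spots were left out, and spots of a probe were averaged. The processed signals of 12 arrays were quantile-normalized, raised to at least 1 and log2-transformed. Tests covered probes flagged well above background on 3 or more of 12 arrays. limma 3.58.1 under R 4.3.3 compared siOCT4-POVPC with siOCT4-DMSO (two-sided, 6 arrays), and the difference of the POVPC effects was fitted over 12 arrays. Benjamini-Hochberg adjustment was made for miRNA probes and for the other probes apart, and a feature was called at an adjusted p under 0.05 and a 1.5-fold change. The fit of siOCT4-POVPC against siOCT4-DMSO was tested on simulated arrays with independent noise and no slide effect. The fit over 12 arrays was not tested in this way.

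Groups came from the source names. Nothing says that replicates were separate cultures, so p-values measure only the spread between these samples, which may be technical, and the number of arrays limits the precision. Exact permutation of 3 arrays against 3 gives no p below 0.1, so it was not used. The members and lists were chosen with earlier results of these data known. Named were the 5 miRNA probes and the 2 PST and 2 TRF probes with the lowest p in each direction among those well above background on all 6 siOCT4 arrays, the miRNAs of fixed lists, and the study's lists as counts. Names came from the study's tables by probe identifier, and positions and sequences from RefSeq for GRCm38.p6, whose tables give gene spans and not exons. The array design names an older mouse build. The 50 gene probes were not tested. The files hold no mean signal, so normexp used the median signal. Alternatives covered normalization, background correction, floor, filter, slide, replicate block, array weights, thresholds and leaving out each array.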

Additional observations from a re-analysis of the deposited data

How the results depend on the processing

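Calls for POVPC in siOCT4 cells depended on the processing. Instead of 0 miRNA probes, 1016 were called with slide as a block, 94 and 39 with 75th percentile scaling over all probes and over probes well above background on all arrays, 65 with array weights, 50 when 12 arrays entered 1 fit, 30 when only probes above background on all 12 arrays were tested, 13 with normexp, 13 with a floor of 8 and 2 with an unpaired t-test once its p-values were adjusted. At an unadjusted p under 0.05 and 1.5-fold, limma gave 442 and the t-test 264. Other small RNA probes called were 412 with slide as a block, 46 with array weights, 1 each with normexp, a floor of 8 and the filter on all 12 arrays, and 87 and 59 at the unadjusted threshold by limma and the t-test. Named miRNA means called were 37 with slide as a block, 4 with the scaling over all probes, 3 in the fit of 12 arrays, 2 with a floor of 8, and 36 and 28 at the unadjusted threshold. For the difference of the POVPC effects, slide as a block gave 370 miRNA and 226 other probes, and the unadjusted threshold with 1.5-fold gave 304 and 74. The slide-block effect is that against siOCT4-DMSO replicate 3 alone. The fits with fewer probes or more arrays test other features or estimate the spread from other arrays, and the cause was not tested. The other planned settings gave 0 calls, apart from leaving out arrays.

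Leaving out any 1 array gave 0 to 1 miRNA probes, 0 to 15 other probes and 0 named means, and 0 for the difference of the effects. The 1 and the 15 came without siOCT4-DMSO replicate 3. Scaling over all probes moved the unadjusted split of miRNA probes from 280 higher and 162 lower to 619 and 75, that of the other probes from 49 and 38 to 423 and 17, and the median of the other probes from 0.00 to 0.27, and with scaling over probes above background on all arrays the split was 266 and 30 and that median 0.14.

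Of 71 named probes and miRNA means, 49 passed the threshold under at least 1 alternative and 5 changed sign. mmu-miR-146a-5p was 0.15 and 0.023 under the 2 scalings, 0.047 with array weights, and −0.24 to 0.12 when 1 array was left out, with 0.12 without siOCT4-DMSO replicate 3 and 0.00046 without siOCT4-POVPC replicate 1. mmu-miR-379-3p was −0.050 with a floor of 8 and −0.029 in the authors' table. mmu-miR-410-5p was −0.0019 with array weights, and −0.046 (without siOCT4-DMSO replicate 3) to 0.23 when 1 array was left out. mmu-miR-196a-2-3p was −0.011 with normexp, −0.0059 in the authors' table, and −0.10 (without siOCT4-DMSO replicate 2) to 0.31 when 1 array was left out. mmu-miR-881-5p was −0.027 (without siOCT4-DMSO replicate 3) to 0.27.

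The deviations of same-numbered siOCT4-DMSO and siOCT4-POVPC arrays correlated at 0.05, −0.13 and 0.03. The siOCT4-DMSO array that stood apart shared a slide with the siOCT4-POVPC arrays, and the other siOCT4-DMSO arrays did not. These correlations therefore cannot decide whether same-numbered arrays shared a culture or a day. With the replicate block 0 miRNA probes, 0 other probes and 0 named means were called, and 0 for the difference of the effects.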

Other observations

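Changes after POVPC in siOCT4 cells were set beside base composition. The share of G and C in the mature sequence correlated with the log2 change at a Pearson r of −0.45 over the 110 named miRNAs, and at −0.38 over the 78 with at least 3 probes well above background on all 6 siOCT4 arrays. In siNT cells, on other arrays, the values were −0.52 and −0.43. The share of U alone gave 0.33 in siOCT4 cells and 0.12 in siNT cells, and the share of A gave 0.14 and 0.40. These are descriptions across miRNAs that the study had selected, that share arrays and that include families of like sequence. The 7 miRNAs the study listed as lower had a median of 36.4% G (18.2% to 61.9%) and the 29 listed as higher 22.7% (4.35% to 45.5%). mmu-miR-1224-5p was the richest in G, with 61.9%, and mmu-miR-494-3p was the poorest of the 7, with 18.2%.

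The changes of miRNA probes were also set beside brightness. Among the 225 probes with a mean log2 signal over 8 across all 12 arrays the median change in siOCT4 cells was 0.22, and among the 336 between 6 and 8 it was 0.11. Among the 2408 between 4 and 6 it was −0.08, and among the 5612 between 2 and 4 it was −0.02. At the unadjusted threshold 10.2% of the brightest and 15.2% of the next group were higher, against 4.9% between 4 and 6 and 1.57% between 2 and 4. The shares that were lower were 4%, 5.06%, 0.789% and 1.94% in the same order. The remaining 40 probes, with a mean under 2, had a median change of −0.28, and 0% of them were higher and 20% lower at that threshold. The part of brightness and of base composition in the results above was not tested.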
